A study of Mus musculus with 4 samples.

Results

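Transcripts of 10 genes of the skeletal muscle stem cell programme were followed in single cells of mouse Achilles tendon. The genes were a set chosen with earlier results of these data known, matched by gene identifier among the 27040 genes listed for all 4 libraries, and all 10 were found: Pax7, Pax3, Myf5, Myod1, Myog, Myf6, Msc, Megf10, Chrdl2 and Calcr. The groups were Prox1 eGFP tendon at days 7 and 21 of the treatment abbreviated B/T, Vegfc CRE tendon at day 7 of it, and, as the control, uninjured Prox1 eGFP tendon with no treatment at day 0. Each group was 1 droplet library of 5 pooled tendons, so there is no spread between animals. All intervals below are 95% intervals for counting error only, and a p-value between groups cannot be had. The eGFP reporter is named for Prox1, a homeobox transcription factor best known for lymphatic endothelial identity, and the labels do not say in which cells the CRE of the Vegfc line acts. The labels describe both flow sorting for Prox1-expressing cells and unsorted cells, so shares of cells can reflect a sort. The age of the animals and the meaning of B/T were not given in the sources used here.

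Satellite cells are the resident stem cells of skeletal muscle. They are kept by the paired-box factor Pax7, and after injury they enter the cell cycle and switch on Myod1. The basic helix-loop-helix factors Myf5 and Myod1 set myogenic fate. Myog then drives the exit to differentiation and fusion, and Myf6 is the member of the same family found in mature fibres. Msc (musculin) is a helix-loop-helix repressor, Megf10 an epidermal growth factor repeat receptor of satellite cells, Chrdl2 a secreted chordin-like protein, and Calcr the calcitonin receptor of quiescent satellite cells. Pax3 is the embryonic paralogue of Pax7.

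On build mm10 all 10 are protein-coding genes, and none overlaps another listed gene on its own strand in the GENCODE M21 annotation. Pax7 (ENSMUSG00000028736) spans 139737062 to 139833528 of chromosome 4, minus strand. On the plus strand, Myog (ENSMUSG00000026459) spans 134289989 to 134292548 of chromosome 1 and Myod1 (ENSMUSG00000009471) spans 46376474 to 46379099 of chromosome 7. Myf5 (ENSMUSG00000000435) and Myf6 (ENSMUSG00000035923) are neighbours on the minus strand of chromosome 10, with starts 8603 bases apart. Msc is overlapped on the other strand by Gm9947, and Prox1 by Prox1os and Gm28172, and whether the counting used strand is not given in the sources used here. Promoters of Pax7, Myf5, Myog and Calcr, 4 of the 10 genes, were in the RefSeq table of build GRCm38.p6, from 250 bases before to 50 bases after the start. That start is the one of the RefSeq entry and can differ from the GENCODE spans above. It does so for Myog and Pax7, and the Pax7 window lies wholly inside the GENCODE span of the gene. Entries for Pax3, Myod1, Myf6, Msc, Megf10 and Chrdl2 were not used here. The promoters of Myog, Myf5 and Pax7 are shown because the level of Myog went opposite to those of the other 2 genes across the muscle clusters described below. Capitals mark the E-box CANNTG, the motif that the myogenic helix-loop-helix factors bind. It was searched on this strand, and as it is its own reverse complement the other strand adds none.
Myog, chr1:134289754-134290053, plus strand: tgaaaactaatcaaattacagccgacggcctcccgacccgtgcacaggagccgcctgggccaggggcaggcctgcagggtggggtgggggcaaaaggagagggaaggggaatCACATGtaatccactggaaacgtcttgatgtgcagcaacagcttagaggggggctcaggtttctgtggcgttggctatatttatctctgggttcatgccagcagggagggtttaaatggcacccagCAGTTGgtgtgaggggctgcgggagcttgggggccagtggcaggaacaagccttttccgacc
Myf5, chr10:107486085-107486384, minus strand: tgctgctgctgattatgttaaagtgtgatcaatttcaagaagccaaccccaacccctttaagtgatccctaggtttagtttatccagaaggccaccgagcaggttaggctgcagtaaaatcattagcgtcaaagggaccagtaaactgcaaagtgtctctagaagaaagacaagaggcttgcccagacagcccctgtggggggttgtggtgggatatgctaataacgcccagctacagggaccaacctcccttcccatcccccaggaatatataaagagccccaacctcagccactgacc
Pax7, chr4:139832919-139833218, minus strand: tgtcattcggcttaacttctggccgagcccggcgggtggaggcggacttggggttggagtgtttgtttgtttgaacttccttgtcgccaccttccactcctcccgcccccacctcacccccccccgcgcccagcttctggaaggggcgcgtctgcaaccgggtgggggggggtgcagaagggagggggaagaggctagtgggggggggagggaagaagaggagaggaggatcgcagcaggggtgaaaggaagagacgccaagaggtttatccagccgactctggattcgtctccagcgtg
The Myog promoter held 2 E-boxes, CACATG starting at -138 and CAGTTG starting at -12 from the RefSeq start. At least 2 were held by 39.6% of the 32851 promoters in the table. The Myf5 and Pax7 windows held none, as did 27.7% of all promoters. A match describes these letters and not a bound site.

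After filters on cells, 690, 4871 and 6303 cells were analysed for Prox1 eGFP at days 0, 7 and 21 and 6979 for Vegfc CRE at day 7, with medians of 7064.5, 8471, 7513 and 8507 unique molecular identifiers (UMIs, counted transcripts) per cell. Pairs of libraries shared 2 to 14 cell barcodes. Cells were clustered without the 10 genes and without Prox1, so that none of them set the cluster it is described in. Clusters 0, 1, 18 and 25 were named muscle-like from markers such as Cdh15, Des and Fgfr4, and are called muscle progenitor-like to set them apart from the mature muscle-like cluster 15, led by fibre genes. They held 0, 3606 and 3343 cells at days 0, 7 and 21 of Prox1 eGFP and 31 in Vegfc CRE. A Prox1 UMI was present in 3570 of those cells at day 7 and in 3220 at day 21, and these are the Prox1-positive cells described next. In mature muscle-like cells a Prox1 UMI was found in 33.6% of cells at day 21 and 39.7% at day 7, at median depths of 5655 and 14786.5 UMIs. Whether those UMIs came from the cells themselves or from free RNA was not tested. The same holds for a single Prox1 UMI in a progenitor-like cell. Levels are UMIs of the gene per 1000000 UMIs of the summed cells (CPM).

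The analysed cells of the untreated library held almost none of these transcripts. Of those 690 cells, 400 were T/NK-like, 111 B/plasma-like and 2 fibroblast-like, so the low counts describe mostly lymphocytes. At day 0, 9 of the 10 genes had 0 UMIs in 690 cells, which allows a level of up to 0.449 CPM at 3 UMIs. Msc had 45 UMIs, or 6.74 CPM, with 145 CPM in mural-like cells, and no muscle-like cell was found. At days 7 and 21 of Prox1 eGFP, Pax7 and Myf5 lay mainly in the muscle clusters. In all cells outside them Pax7 had 10.4 CPM at day 21 and 13.4 CPM at day 7, and Myf5 had 9.91 and 11.7 CPM. Free RNA can give such low counts in every cell type, and these values serve as the background below.

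Among Prox1-positive muscle progenitor-like cells, Pax7 and Calcr were lower and Myog and Chrdl2 higher at day 21 than at day 7. Pax7 stood at 379.6 CPM at day 21 (8585 UMIs) and 668 CPM at day 7 (20222 UMIs), a ratio of 0.568 (0.554 to 0.583). Calcr stood at 34.4 CPM at day 21 and 78.6 CPM at day 7, a ratio of 0.437 (0.402 to 0.474). Both genes were thus lower at the later time, Calcr by more than 2-fold and Pax7 by less.
Chrdl2 stood at 247 CPM at day 21 and 118 CPM at day 7, a ratio of 2.10 (2.02 to 2.19). Myog stood at 63.1 CPM at day 21 and 22.7 CPM at day 7, a ratio of 2.78 (2.54 to 3.05). Of the 10 genes, 2 were at least 2-fold higher and 1 at least 2-fold lower at day 21, where 3.53% and 11.7% of the 13807 genes with at least 10 UMIs were. The median log2 ratio of the 10 genes was -0.25, and that of all genes tested was -0.26.

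The determination factors differed less between the days. Myf5 stood at 472 CPM at day 21 and 559 CPM at day 7, a ratio of 0.846 (0.825 to 0.866). Myod1 stood at 124 CPM at day 21 and 116 CPM at day 7, a ratio of 1.07 (1.02 to 1.13). Neither differed by more than 1.5-fold.
Msc had a ratio of 0.831 (0.787 to 0.877) and Megf10 one of 0.854 (0.798 to 0.913), both lower at day 21. Relative to the median of all genes, the log2 ratios of Myf5, Msc and Megf10 became 0.02, -0.00424 and 0.03, so Myf5 and Megf10 changed sign on that scale and all 3 lay near the median. Pax7 stayed lower at -0.55 and Calcr at -0.93 on that scale, where 0 of the 10 genes were 2-fold lower, and Chrdl2 and Myog stayed higher at 1.33 and 1.74. Pax3 was low at both times, with 6.32 CPM at day 21 and 10.1 CPM at day 7, and Myf6 had 4.82 CPM at day 21 and 6.48 CPM at day 7. Prox1 itself stood at 790.5 CPM at day 21 and 1250.3 CPM at day 7, a ratio of 0.632 (0.621 to 0.644).

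The 2 large clusters changed places between the libraries. Cluster 0 held 85.2% of the Prox1-positive progenitor-like cells at day 21 and 17.8% at day 7, and cluster 1 held 12.1% at day 21 and 77.0% at day 7. A cluster mostly of 1 library may be that library and not a cell type, so each ratio was also taken inside each cluster. Pax7 had a ratio of day 21 to day 7 of 0.603 (0.578 to 0.630) in cluster 0 and 0.689 (0.652 to 0.728) in cluster 1. Chrdl2 had 2.41 (2.20 to 2.65) in cluster 0 and 2.25 (2.08 to 2.43) in cluster 1. Calcr had 0.489 (0.426 to 0.561) in cluster 0 and 0.626 (0.526 to 0.739) in cluster 1. These 3 genes kept their direction inside both clusters.
Msc turned round, with 1.25 (1.11 to 1.42) in cluster 0 and 1.46 (1.32 to 1.61) in cluster 1, against 0.831 over all. Myod1 was lower in cluster 0, with 0.809 (0.742 to 0.884), and had an interval across 1 in cluster 1, with 0.970 (0.855 to 1.10). Myog was between 0.624 and 2.13 CPM in both clusters on both days, and the intervals of its ratio ran from 0.360 to 6.86 in cluster 0 and from 0.175 to 1.82 in cluster 1.

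**Figure D1:**
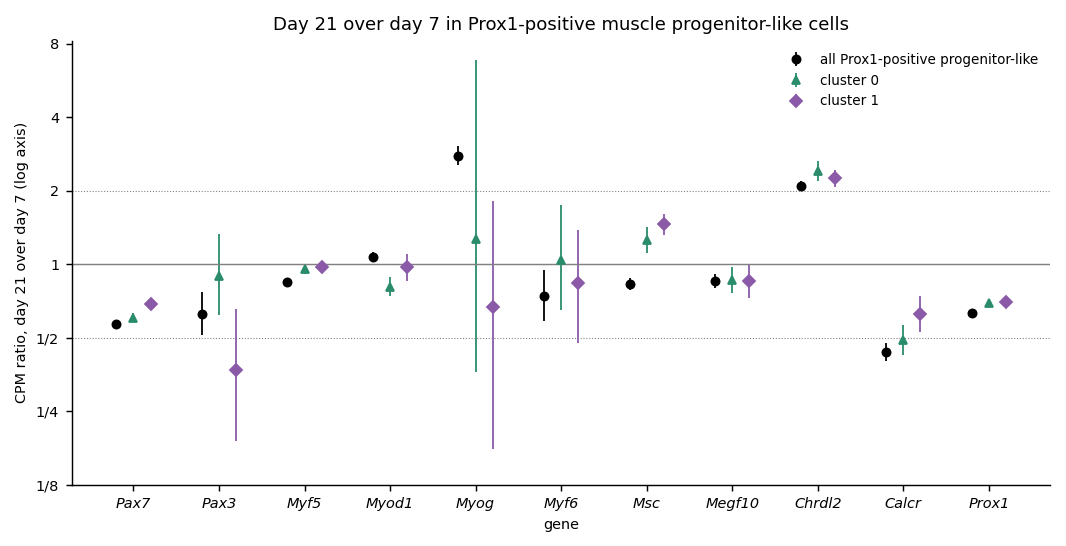
CPM ratio of day 21 over day 7 (log axis) of each of the 10 genes and Prox1 in Prox1-positive muscle progenitor-like cells (circles), in cluster 0 alone (triangles) and in cluster 1 alone (diamonds), with 95% counting intervals. Chrdl2 sits above 2 and Pax7 below 1 in all 3 sets, while the Myog ratio of 2.78 is seen over all clusters and in neither cluster alone.

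The Myog transcripts were held by cluster 18, which carried Cdh15, Des and Fgfr4 as the other muscle clusters did and was led by Dcx and Myog. It held 1408 of the 1427 Myog UMIs of the Prox1-positive class at day 21, or 98.7%, and 635 of 686 at day 7, or 92.6%. Its cells were few, with 61 at day 21 and 144 at day 7. Without cluster 18 the log2 ratio of Myog was -1.09 in place of 1.48, and with the Mymk-rich cluster 23 counted in the class it was 0.69, under 2-fold.
At day 21, Myog stood at 1889.9 CPM in cluster 18 and 0.876 CPM in clusters 0 and 1, and Myod1 at 498 CPM in cluster 18 and 111 CPM in clusters 0 and 1. Pax7 stood at 138 CPM in cluster 18 and 388 CPM in clusters 0 and 1, and Myf5 at 173 CPM in cluster 18 and 483 CPM in clusters 0 and 1. The Myog-high cluster was thus low in both genes of the undifferentiated state and high in Myod1.
At day 7 the same cluster was less far from the others. Myog stood at 244 CPM in cluster 18 and 1.86 CPM in clusters 0 and 1, Myod1 at 176 CPM and 110.2 CPM, and Myf5 at 495 CPM and 564 CPM, in that order of clusters. Day 21 over day 7 inside cluster 18 gave ratios of 7.73 for Myog (7.03 to 8.50), 2.84 for Myod1 (2.47 to 3.26), 0.352 for Pax7 (0.285 to 0.431) and 0.350 for Myf5 (0.289 to 0.419). Prox1 stood at 770.4 CPM in cluster 18 and 791 CPM in clusters 0 and 1 at day 21, and at 1061 CPM in cluster 18 and 1269.7 CPM in clusters 0 and 1 at day 7.

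Unnamed cluster 23 (52 cells at day 21, 36 at day 7) was led by Mymk, the fusion protein myomaker, and by Actc1 and Mymx. Its Myog level was 6962 CPM at day 21 and 5725 CPM at day 7. Pax7 was at 3.30 CPM at day 21 and 18.6 CPM at day 7, near the background of cells outside muscle, and Myf5 at 3.30 and 21.7 CPM. Myod1 was at 328 CPM at day 21 and 390.3 CPM at day 7, Megf10 at 174 and 166 CPM, and Prox1 at 384 and 556 CPM, so that transcripts of Prox1 and Megf10 were still present where those of Pax7 were at background.
Among the muscle clusters Myf6 had its highest level in mature muscle-like cells, 220.4 CPM at day 21 (107 cells) and 139 CPM at day 7 (136 cells), against 4.82 and 6.48 CPM in the Prox1-positive progenitor-like cells. Myog in mature cells was 210.3 CPM at day 21 and 13.3 CPM at day 7, a ratio of 15.8, while the share of cells with a Myog UMI was 18.7% at day 21 (20 of 107) and 14.7% at day 7 (20 of 136), so few cells carried the level. Prox1 was 134 CPM there at day 21 and 75.6 CPM at day 7.
Unnamed cluster 20 was led by genes of dividing cells such as Esco2 and Pbk (106 cells at day 21, 17 at day 7). At day 21 its levels were 385 CPM for Myod1, 343 CPM for Myf5, 179.6 CPM for Pax7, 179.6 CPM for Msc and 7.28 CPM for Myog, with Prox1 at 786 CPM. Its 17 cells at day 7 had 325 CPM of Myod1, 186 CPM of Pax7 and 281 CPM of Myog, whose 97 UMIs lay in 4 cells. Transcripts of Myod1 and Pax7 were thus found in this cluster on both days. Whether the cells that held them also held Prox1 was not tested, and the cluster was not named as muscle.

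**Figure D2:**
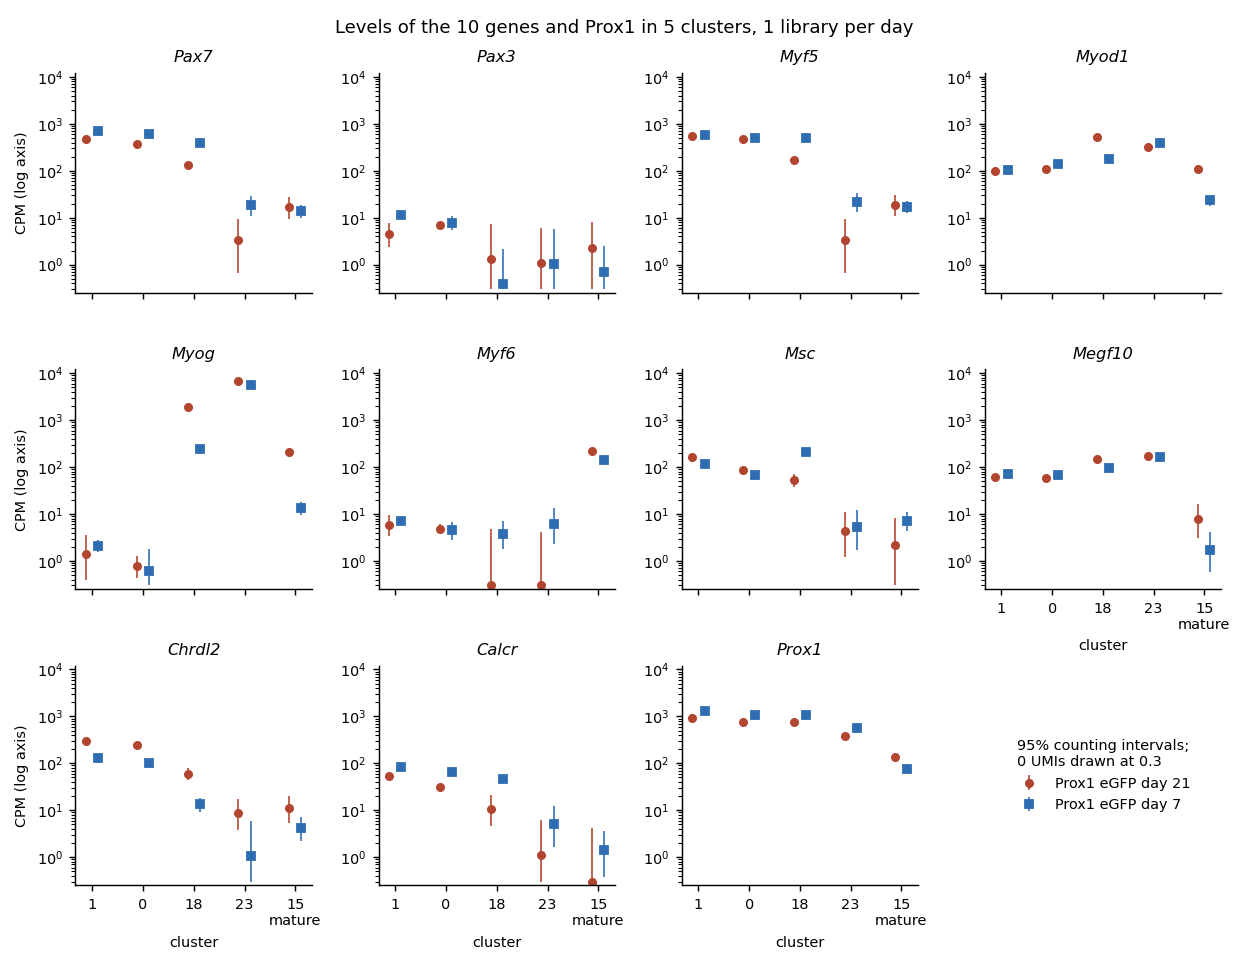
Level of each of the 10 genes and Prox1 (CPM, log axis) over all cells of clusters 1, 0, 18, 23 and the mature muscle-like cluster 15, in the day 21 library (circles) and the day 7 library (squares), with 95% counting intervals. Myog reaches 6962 CPM at day 21 in cluster 23, where Pax7 is at 3.30 CPM, and Myf6 is highest in cluster 15.

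To compare cells at 1 depth, each cell was thinned to 2000 UMIs, which left 3180 cells at day 21 and 3547 at day 7 and left out 40 and 23 shallower ones. A cell with no UMI of a gene at this depth is not a cell without its transcript. A Pax7 UMI was found in 49.4% of the thinned cells at day 21 (47.6 to 51.1%) and 68.8% at day 7 (67.3 to 70.3%). In cells outside the muscle classes the Pax7 shares were 0.951% at day 21 and 2.33% at day 7. At full depth, with medians of 6633 UMIs at day 21 and 7732.5 at day 7, a Myog UMI was found in 1.86% of the Prox1-positive cells at day 21 and 1.68% at day 7.
At least 1 of Pax7, Myf5 and Myod1 was detected in 2545 cells at day 21 and in 3139 at day 7, while 10.1% and 6.17% had none of the 10 genes. Most Prox1-positive cells therefore carried at least 1 of the 10 genes even at this low depth.

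Sorted by Pax7, Myod1 and Myog into 5 detection states, most cells had Pax7 alone or none of the 3. Pax7 alone was found in 41.2% of cells at day 21 (39.4 to 42.9%) and 57.7% at day 7 (56.0 to 59.3%). None of the 3 was found in 41.5% at day 21 (39.8 to 43.2%) and 26.3% at day 7 (24.8 to 27.8%). Pax7 with Myod1, the combination of activated satellite cells, was found in 7.99% at day 21 (254 of 3180 cells) and 10.9% at day 7 (387 of 3547 cells).
Myod1 without Pax7 was found in 8.05% at day 21 (7.13 to 9.05%) and 4.43% at day 7 (3.77 to 5.16%). Any Myog was found in 1.29% at day 21 (0.927 to 1.75%) and 0.733% at day 7 (0.479 to 1.07%). Cells outside muscle had Myog shares of 0.152% at day 21 (0.0415 to 0.389%) and 0.466% at day 7 (0.152 to 1.09%), so at day 7 the share is not separate from background at this depth. With cluster 23 counted in the class the Myog share was 2.79% at day 21 and 1.73% at day 7, above the background interval on both days. These states are ranges of counts and not cell types.
By cluster, 60.7% of the thinned cells of cluster 18 had Myog at day 21 and 9.72% at day 7, whereas in clusters 0 and 1 the share was 0.148% and 0% at day 21 and 0.321% and 0.365% at day 7. Levels of Prox1 in the other 4 states ranged from 761 to 902 CPM at day 21 and from 1098 to 1347 CPM at day 7, and were 609 CPM at day 21 and 939.6 CPM at day 7 in the cells with Myog.

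**Figure D3:**
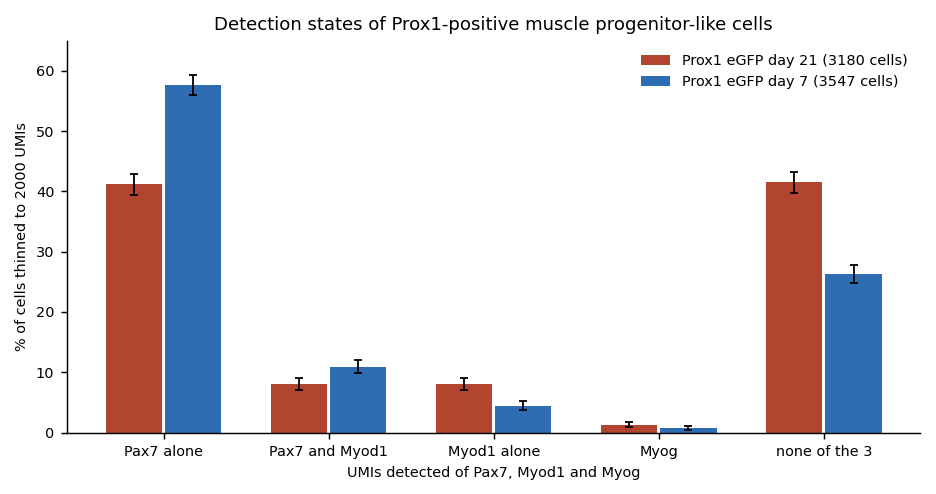
Percent of Prox1-positive muscle progenitor-like cells, thinned to 2000 UMIs, in each of 5 detection states of Pax7, Myod1 and Myog at day 21 (left bars, 3180 cells) and day 7 (right bars, 3547 cells), with exact 95% intervals. Pax7 alone is 41.2% at day 21 and 57.7% at day 7, and the state with none of the 3 genes is 41.5% and 26.3%.

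Co-detection was read as the share of cells with 1 gene among cells with and without another. Myod1 was found in 16.2% of cells with Pax7 (14.5 to 18.2%) and 17.3% of cells without it (15.5 to 19.3%) at day 21, and in 15.9% (14.5 to 17.5%) and 15.3% (13.2 to 17.5%) at day 7. The intervals overlapped on both days, so at this depth no association of Myod1 with Pax7, in either direction, was detectable. At full depth, where deeper cells show more of both genes, Myod1 was more frequent with Pax7 by 4.74 percentage points at day 21 and 5.92 at day 7. Myf5 was found in 54.1% of cells with Pax7 and 50.5% without it at day 21 and in 59.4% and 55.4% at day 7, again with overlapping intervals.
Myog showed the opposite relation to the 2 genes. It was found in 0.446% of cells with Pax7 (0.179 to 0.916%) and 2.11% without it (1.47 to 2.94%) at day 21, and in 0.369% (0.169 to 0.699%) and 1.54% (0.898 to 2.45%) at day 7. Among cells with Myod1, Myog was found in 4.49% (2.90 to 6.61%) and among those without it in 0.642% (0.375 to 1.03%) at day 21, and in 2.51% and 0.401% at day 7. The relation of Myog to Pax7 rests on cluster 18: without that cluster the Myog shares with and without Pax7 at day 21 differed by 0.00107 percentage points. Of the 41 thinned cells with Myog at day 21, 37 were in cluster 18. The relation of Myog to Myod1 thus also draws mostly on that cluster, and it was not taken without it.

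Of 45 pairs compared at day 21 the second gene was detected more often with the first in 5 and less often in 6, with intervals that do not overlap, and of 40 pairs with at least 30 cells at day 7 in 3 and 2. The pairs share cells and libraries. Chrdl2 differed by Myod1 and by Msc. At day 21 it was found in 16.9% of cells with Myod1 (13.8 to 20.3%) and 35.3% without it (33.4 to 37.1%), and in 43.8% of cells with Msc (39.0 to 48.7%) and 30.4% without it (28.7 to 32.1%). The difference for Myod1 was -17.3 percentage points in cluster 0 alone and -20.1 in cluster 1 alone, so it was seen inside both clusters. At day 7 the shares of Chrdl2 were 14.9% with Myod1 and 18.7% without it, with overlapping intervals, and 24.7% with Msc and 17.0% without it, with separate ones.
Msc in turn was found in 16.4% of cells with Myf5 (14.6 to 18.2%) and 9.89% without it (8.43 to 11.5%) at day 21, and in 9.36% with Myod1 (7.03 to 12.2%) and 14.1% without it (12.8 to 15.4%). Chrdl2 was found in 35.1% with Myf5 and 28.9% without it, and Myf5 in 46.6% with Myod1 and 53.4% without it, again at day 21 with separate intervals. Each of Chrdl2, Msc and Myf5 was thus detected less often in cells with Myod1 at day 21.

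**Figure D4:**
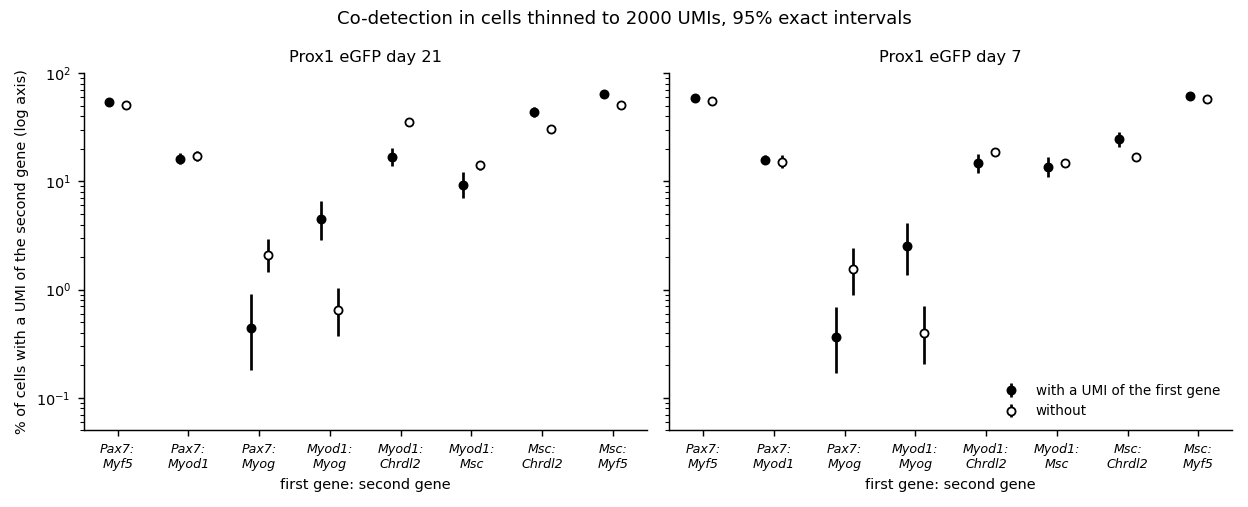
Share of Prox1-positive muscle progenitor-like cells (log axis) with a UMI of the second gene of each pair, among cells with (filled) and without (open) a UMI of the first, at day 21 and day 7, thinned to 2000 UMIs, with exact 95% intervals. Myod1 is at 16.2% with Pax7 and 17.3% without it at day 21, while Myog is at 4.49% with Myod1 and 0.642% without it.

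The 10 genes were also read by whether a Prox1 UMI remained. Among all progenitor-like cells at day 7, Pax7 was found in 70.0% of cells with a Prox1 UMI after thinning (68.4 to 71.6%) and 59.7% of those without (54.9 to 64.3%). At day 21 the Pax7 shares were 50.4% with Prox1 (48.4 to 52.4%) and 45.0% without it (41.5 to 48.5%), with intervals that overlap slightly. Calcr was found in 7.07% of cells with Prox1 (6.09 to 8.16%) and 4.11% without it (2.86 to 5.70%) at day 21. At day 7 the Calcr shares were 14.3% and 10.3%, with overlapping intervals, and for the other 8 genes the intervals overlapped on both days.

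Prox1-positive cells with Myog were set against those without at day 21. The 41 Myog-positive cells had a median of 11765 UMIs and the 3139 Myog-negative cells one of 6636. Of the 41, 37 were in cluster 18, so this comparison largely repeats that of cluster 18 with clusters 0 and 1. Pax7 stood at 83.2 CPM in Myog-positive and 386 CPM in Myog-negative cells, a ratio of 0.216 (0.157 to 0.290). Myf5 stood at 77.5 CPM in Myog-positive and 481 CPM in Myog-negative cells, and Myod1 at 499 and 115 CPM, a ratio of 4.36 (3.83 to 4.95). Of 7 other genes of the set with enough UMIs, 5 were at least 2-fold lower in Myog-positive cells and 2 at least 2-fold higher, where 10.1% and 11.2% of 5868 genes were.
The second higher gene was Megf10, with 157 CPM in Myog-positive and 59.6 CPM in Myog-negative cells, a ratio of 2.63 (2.08 to 3.29). Chrdl2 had 53.0 and 252 CPM, Calcr 5.67 (3 UMIs) and 34.9 CPM, and Msc 28.4 and 96.4 CPM, in the same order. Prox1 stood at 609 CPM in Myog-positive and 793 CPM in Myog-negative cells, a ratio of 0.768 (0.685 to 0.857), where both sets were chosen to have a Prox1 UMI. With Myog taken at full depth (60 positive and 3160 negative cells) the ratios were 0.343 for Pax7, 0.296 for Myf5, 0.404 for Calcr and 0.529 for Msc, so Msc was then under 2-fold lower.

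**Figure D5:**
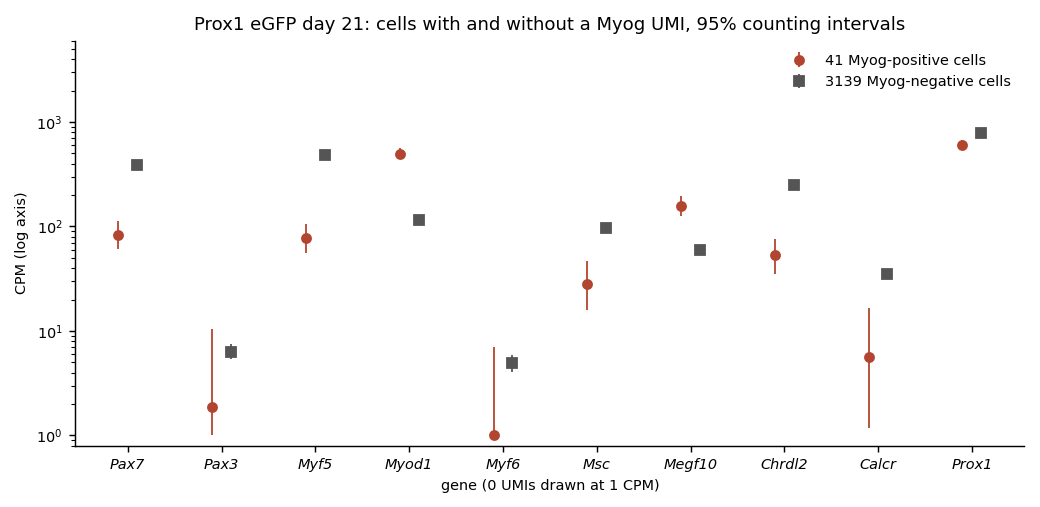
Level (CPM, log axis) of 9 of the 10 genes and Prox1 at day 21 in Prox1-positive muscle progenitor-like cells with a Myog UMI (circles, 41 cells) and without one (squares, 3139 cells), with 95% counting intervals. Myod1 (499 and 115 CPM) and Megf10 (157 and 59.6 CPM) are higher in Myog-positive cells, and Pax7 (83.2 and 386 CPM) is lower.

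The genes with the largest ratios in Myog-positive cells at day 21 were Mymk, Chn2, Mylk4, Pcp4, Cdkn1c, Dok7, Pak3 and Fndc5. Mymk, the fusion protein, stood at 199 CPM in Myog-positive and 0.182 CPM in Myog-negative cells. Cdkn1c, an inhibitor of the cell cycle, stood at 6523 and 33.2 CPM, and Dok7, an adaptor of the neuromuscular junction, at 58.6 and 0.318 CPM. Of the differentiation list, 4 of 6 genes with enough UMIs were at least 2-fold higher and 0 lower. Of the quiescence and Notch list, 11 of 18 were at least 2-fold lower and 0 higher, and these included the receptor Notch3 with 7.56 CPM in Myog-positive and 123 CPM in Myog-negative cells and the growth factor antagonist Spry1 with 108 and 392 CPM, both named after their values were seen. Of the 16 genes of the proliferation list, 4 were counted, of which 3 were at least 2-fold higher in Myog-positive cells and 0 lower. The 3 were Mcm2, Mcm3 and Mcm6, subunits of the replicative helicase, also named after their values were seen. They had 80, 272 and 236 UMIs in all Prox1-positive progenitor-like cells at day 21. Each entered only by being high in Myog-positive cells, so this count is not a result about the list. The summed level of all 16 genes was 221 CPM in Myog-positive and 112 CPM in Myog-negative cells. Of the regulators and partners 5 of 15 were higher and 2 lower, and of the satellite surface list 0 of 13 were higher and 3 lower.
The summed level of genes of dissociation and early response was 20688 CPM in Myog-positive and 40104 CPM in Myog-negative cells, and of markers of other cells 342 and 492 CPM. Their part, and that of depth, in the ratios above was not tested.
At day 7 only 26 thinned cells had Myog, under the minimum of 30 cells, so cells were taken by any Myog UMI at full depth (60 positive, 3510 negative). Of the 60 cells, 26 lay in cluster 18, 31 in cluster 1 with 48 Myog UMIs, and 3 in cluster 0 with 3. Their share of 1.68% (1.28 to 2.16%) overlapped the 1.21% (0.645 to 2.06%) of cells outside muscle, at medians of 7732.5 and 19004 UMIs. The day 7 set is thus not separate from background, and it is not matched to the thinned day 21 set. Pax7 stood at 325 CPM in Myog-positive and 678 CPM in Myog-negative cells, Myod1 at 351 and 109 CPM, and Megf10 at 145 and 70.4 CPM. Of 8 other genes of the set, 2 were at least 2-fold higher (6.05% of 7853 genes were) and 2 at least 2-fold lower (5.06%). Of the proliferation list 5 of 7 were higher and 0 lower, and of the quiescence and Notch list 3 of 18 were lower and 0 higher. The rule for counting a gene was the same as at day 21, so the proliferation count is again not a result about the list. The summed level of the whole proliferation list was 296 CPM in Myog-positive and 106 CPM in Myog-negative cells. The largest ratios were those of Mymk, Dok7, Igfbp3, Chrnd, Gm28653, Myzap, Btbd17 and 5430431A17Rik.
With cluster 23 added, 90 and 62 thinned cells had Myog at days 21 and 7. Pax7 then stood at 33.6 CPM in Myog-positive and 386 CPM in Myog-negative cells at day 21 and at 64.6 and 674 CPM at day 7, and Prox1 at 479.6 and 793 CPM at day 21 and at 664 and 1253 CPM at day 7.

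Other genes of the pathway were counted between the days in all Prox1-positive progenitor-like cells, from lists chosen with earlier results of these data known. Of the differentiation list, 14 of 19 genes with at least 10 UMIs were at least 2-fold lower at day 21 and 1 was higher, where 11.7% and 3.53% of all genes were, with a median log2 ratio of -1.32 against -0.26 for all genes. Ckm, the muscle creatine kinase, stood at 9.99 CPM at day 21 and 43.1 CPM at day 7, Tnnt3 at 12.6 and 39.9 CPM, and Acta1, skeletal actin, at 26.6 and 83.2 CPM. Myh7, the slow myosin heavy chain, had 5 UMIs at day 21 and 27 at day 7. The gene that was higher was Mymk, with 4.82 CPM at day 21 and 1.02 CPM at day 7, and 0 genes of the list were higher in cluster 0 alone, in cluster 1 alone or without cluster 18. In mature muscle-like cells Acta1 stood at 49629 CPM at day 21 and 55227 CPM at day 7. Those cells held 893900 of the 57718804 UMIs of all analysed cells at day 21 and 2856191 of 58823755 at day 7. The part of free RNA from such cells in the low levels of fibre genes here, and in their ratios between the days, was not tested. Inside cluster 0 alone 7 genes of the list were at least 2-fold lower, and inside cluster 1 alone 5.
Of the quiescence and Notch list 3 of 19 were at least 2-fold lower at day 21, Tenm4, Notch3 (121 CPM at day 21 and 269 CPM at day 7) and Col15a1, and 0 were higher. Of the regulators and partners 2 of 18 were lower, Eya1 and Id2, and of the satellite surface list 1 of 15, Asb5 with 95.4 CPM at day 21 and 250.4 CPM at day 7. Of the proliferation list 1 of 16 was higher, Cenpf with 33 UMIs at day 21 and 19 at day 7. Beside 11.7% lower and 3.53% higher among all genes, the counts of these 4 lists were near the background and are not a result about their genes.
Of the dissociation and early response list 2 of 17 were higher, Dnajb1 (1419 CPM at day 21 and 374 CPM at day 7) and Atf3, and 1 lower, Fosb, and the summed level was 39632 CPM at day 21 and 40486 CPM at day 7. Of the markers of other cells 6 of 14 were higher at day 21 and 1 lower, with Dcn at 33.7 CPM at day 21 and 5.88 CPM at day 7 and a summed level of 489 and 640 CPM. Pdgfra was at 0 at day 21 and Cd3e at 0 at day 7. The part of these in the ratios was not tested.

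Across 33 groups of a cell class in a library with at least 50 cells, the genes most like Pax7 in log2(CPM + 1) were Myf5 (Pearson r = 0.99), Fgfr4, Edn3, Nppc and Chodl. Among those most like Myod1 were Chrna1 (r = 0.98), Pitx3, Vgll2 and Ank1, and those most like Myog were Chrnd (r = 0.94), Dok7, Mymk, Gm28653 and Bex1. Chrna1 and Chrnd encode subunits of the muscle acetylcholine receptor. Groups of 1 library share its depth and free RNA, and the correlations describe the contrast of muscle with other cells.

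The Vegfc CRE library held 31 muscle progenitor-like cells, of which 15 had a Prox1 UMI. Pax7 stood at 249 CPM (180.4 to 336) in all 31 and 667 CPM in the 3606 such cells of Prox1 eGFP at day 7, and Myf5 at 406 CPM (316 to 513) and 558 CPM. Prox1 stood at 151 CPM (98.4 to 221) in Vegfc CRE and 1243 CPM in Prox1 eGFP. The 17 Myog UMIs of the Vegfc CRE progenitor-like cells were all in 1 cell, of cluster 18. The line and the way the cells were collected cannot be told apart in these values.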

How the data were processed

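The authors deposited 1 matrix of raw UMI counts per library, made with Cell Ranger 5.0.1 on mm10 per the submitters' processing notes. The Prox1 eGFP day 7 matrix listed 27998 genes and each of the other libraries 32285. Days 7 and 21 thus differ in gene list as well as in time, and the part of the gene list in their ratios was not tested. Libraries were joined by gene identifier (27040 shared genes, 1227 with another symbol). A barcode was kept when it had 500 or more genes and 1000 or more UMIs, of which no more than 15% were mitochondrial. Scrublet calls were removed, but it called 0.0205% of day 7 cells, so it had not worked there. The totals deposited were 6761289, 59312181 and 59894792 UMIs for Prox1 eGFP at days 0, 7 and 21 and 92568978 for Vegfc CRE.

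Clustering used scanpy 1.11.5 and leidenalg 0.10.2 (resolution 1.0, 2000 variable genes, 30 components, 15 neighbours), with the 10 genes and Prox1 left out. A cluster was named from at least 3 detected markers. Intervals are exact Poisson for levels, Clopper-Pearson for shares and conditional binomial for ratios. With 1 library per group no test was made, and a gene is counted as higher or lower at 2-fold. Thinning was tested on simulated data. The genes, lists and markers were chosen with earlier results of these data known. Named besides the 10 genes and Prox1 were up to 4 genes per list with the largest log2 ratios, the 5 most alike genes of Pax7, Myod1 and Myog, and up to 8 genes with the largest ratios in Myog-positive cells. Cdh15, Des and Fgfr4 are among the markers used to name the muscle-like clusters. Genes said to lead a cluster were ranked after clustering by their level in it over all other cells, and did not name it. An item among the alike genes is not reported here.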

Additional observations from a re-analysis of the deposited data

Results flagged for a closer look

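Msc went opposite ways in cluster 18 on the 2 days. Its level in cluster 18 over clusters 0 and 1 was 0.558 at day 21 (53.7 and 96.1 CPM) and 2.01 at day 7 (212 and 106 CPM), in 1 library each, and the difference between the days was not tested.

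Transcripts of genes of the set were present in the Vegfc CRE library, which held 31 muscle progenitor-like cells, above the 0 UMIs of the untreated library. Over all its cells, with 86657108 UMIs, Myf5 was at 0.992 CPM, Megf10 at 1.07 CPM and Chrdl2 at 3.46 CPM. The 31 cells held 70 UMIs of Myf5, 17 of Megf10 and 5 of Chrdl2. Most Megf10 and Chrdl2 UMIs of this library thus lay in other cells.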

How the results depend on the processing

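Pax7, Pax3 and Calcr stayed lower and Chrdl2 higher at day 21 under every alternative that was run, with log2 ranges of -0.84 to -0.54, -1.43 to -0.16, -1.22 to -0.68 and 0.99 to 1.33. Direction changed for Myog (-1.09 to 1.74), Myod1 (-0.31 to 0.36), Msc (-0.28 to 0.54), Myf5 (-0.26 to 0.02), Megf10 (-0.25 to 0.03) and Myf6 (-0.48 to 0.06). Removing the cells of highest doublet scores, adding cluster 23, taking cluster 0 or 1 alone and leaving out cluster 18 were chosen after seeing the data. The count of genes of the set at least 2-fold higher at day 21 was 1 in place of 2 with clusters made from all variable genes, at resolution 0.5, with the marker gate, with Scrublet calls kept, with highest doublet scores removed, with cluster 23 added and in cluster 0 or cluster 1 alone, and 0 without cluster 18. The count lower was 2 without cluster 18 and 0 when centred on the median of all genes. Myog reversed to -0.58 in cluster 1 alone and -1.09 without cluster 18.

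The share of cells with Myog at days 21 and 7 was 2.79% and 1.73% with all variable genes, 2.81% and 1.73% at resolution 0.5, 2.24% and 1.62% with the gate, 2.76% and 1.76% with Scrublet calls kept, 2.84% and 1.80% with highest scores removed, and 2.79% and 1.73% with cluster 23 added. It was 1.86% and 1.68% with no thinning, 0.148% and 0.321% in cluster 0 alone, 0% and 0.365% in cluster 1 alone, and 0.128% and 0.353% without cluster 18, and at day 7 it was 0.448% with thinning to 1000 UMIs. The share with Pax7 and Myod1 was 3.66% and 3.84% at 1000 UMIs, 18.6% and 20.7% at 4000 UMIs and 28.0% and 33.5% with no thinning, as the depth sets it, and 13.6% at day 7 in cluster 0 alone. Myod1 with minus without Pax7 (-1.09 points at day 21, 0.656 at day 7) was 3.32 and -2.63 at 4000 UMIs and 4.74 and 5.92 with no thinning. It was 1.99 at day 21 with 1000 UMIs, 2.59 at day 21 in cluster 1 alone and 5.77 at day 7 in cluster 0 alone. Myf5 with minus without Pax7 reversed to -1.03 at day 7 with 1000 UMIs, and Myog with minus without Pax7 reversed to 0.00722 at day 21 and 0.476 at day 7 in cluster 0 alone and to 0.00107 at day 21 without cluster 18. Of the differentiation list, 7 genes were lower and 0 higher in cluster 0 alone, 5 and 0 in cluster 1 alone, 2 were higher with at least 1 UMI in each library and 0 without cluster 18. In Myog-positive cells 655 genes were higher and 591 lower, against 1210 and 1432 at resolution 0.5, 1188 and 1456 with highest scores removed and 1213 and 1441 with cluster 23 added. Apart from fewer cells or genes in an alternative, the cause was not tested. No paired analysis was possible because each group is 1 library with no replicate number.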
